A study of Homo sapiens with 12 samples.

Results

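The genes described here encode the subunits of hypoxia-inducible factor (HIF) and the enzymes that tie it to oxygen. They are 10 of the 58302 genes listed in the deposited table, taken by symbol: the alpha subunits HIF1A, EPAS1 and HIF3A, the beta subunits ARNT and ARNT2, the prolyl hydroxylases EGLN1, EGLN2 and EGLN3, the asparaginyl hydroxylase HIF1AN, and VHL. Polyadenylated RNA was sequenced from U251 and U87, established human glioma cell lines, with 3 libraries in each of 4 groups. The groups were U251 with 180 µM artesunate for 24 h, U251 control, U87 with 24.08 µM artesunate for 24 h, and U87 control, and day 9 is given for all of them. Artesunate is a semisynthetic derivative of the antimalarial artemisinin, and the extraction text of the same samples names artemisinin. For the controls the labels name the medium alone, and no solvent is mentioned. Since the doses differ, line and dose cannot be told apart. Nothing says that the replicates are separate cultures, so p-values measure the spread between these samples, which may be technical.

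Library totals ran from 13631985 to 17314284 counts. Levels are given as deposited FPKM (fragments scaled to transcript length and sequencing depth) where genes are compared, and as CPM (counts scaled to the library total, with TMM factors that adjust for library composition) within a gene. A gene was called at an adjusted p under 0.05 in edgeR's quasi-likelihood test with Benjamini-Hochberg adjustment over 17150 tested genes, and all 10 genes passed the filter on low counts. Glioma and astrocyte markers (VIM, NES, CD44, GFAP, S100B, SOX2, OLIG2, AQP4) summed to between 5224 and 7268 CPM in the 12 libraries. However, AQP4 had 0 counts in every group and SOX2 had 0 in both U87 groups. OLIG2 had 0 counts in U251 artesunate, and S100B had 0 in U87 artesunate. The 4 leukocyte markers summed to between 22.4 and 54.1 CPM in U87 artesunate and between 54.6 and 92.3 CPM in U87 control, with CD3E and AIF1 at 0 counts. In U251 they summed to at most 6.39 CPM with artesunate and 2.68 CPM in control. Endothelial and epithelial markers summed to at most 2.99 CPM in any library, and the part of these markers in the results was not tested. In bulk RNA, fewer cells of a kind and less RNA per cell cannot be told apart.

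HIF is a dimer of an oxygen-labile alpha subunit and a constitutive beta subunit that binds hypoxia response elements and drives genes of glycolysis, angiogenesis and iron handling. In oxygenated cells the prolyl hydroxylases, which need iron, oxygen and 2-oxoglutarate, mark the alpha subunits for VHL, the recognition part of a ubiquitin ligase, and HIF1AN hydroxylates an asparagine that otherwise binds the coactivators EP300 and CREBBP. Regulation of the alpha subunits is mainly at the protein level, which RNA does not measure, and EGLN1 and EGLN3 are themselves known HIF target genes.

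Promoter sequence is shown because the core of the hypoxia response element is short enough to be read off the letters. Sequences are from RefSeq (GRCh38.p14), which held windows for 8 of the 10 genes; ARNT2 and VHL had none. The letters ACGTG and GCGTG were searched on both strands in the 250 bases before each start (on the other strand they read CACGT and CACGC), and matches that overlap were counted separately. Of 35116 such windows, 15172 (43.2%) held a match, and so did 5 of the 12 windows of these genes. HIF1A, EPAS1, EGLN1 and EGLN2 each had a window with a match, and HIF1A and EGLN2 each also had a window with no match. For these genes a stretch of 30 bases around the match is printed 5′ to 3′ on the gene's strand, with the matching letters in capitals. For EGLN3, which had the largest change of the 10 genes in U251, the window held no match. Of its 250 bases, the 200 farthest from the start are printed, and those nearest the start are left out. A match is a description of the letters, and no match says only that they are not in this window.
HIF1A, chr14:61695297-61695326, plus strand: tggctgagagcgGCGTGggctggggtgggg
EPAS1, chr2:46297278-46297307, plus strand: gggcctgccggcGCGTGcccgcccacacac
EGLN1, chr1:231422283-231422312, minus strand: gggccgtggtgtACGTGcagagcgcgcaga
EGLN2, chr19:40799130-40799159, plus strand: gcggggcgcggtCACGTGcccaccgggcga
EGLN3, chr14:33951125-33951324, minus strand: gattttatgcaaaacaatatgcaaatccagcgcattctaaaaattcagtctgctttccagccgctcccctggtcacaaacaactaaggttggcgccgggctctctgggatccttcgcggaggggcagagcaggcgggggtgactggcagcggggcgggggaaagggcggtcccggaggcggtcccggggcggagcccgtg
The match lay 204 to 200 bases before the start in HIF1A, 117 to 113 in EPAS1 and 13 to 9 in EGLN1. In EGLN2 the overlapping matches CACGT and ACGTG spanned the bases 49 to 44 before the start. HIF3A had 3 matches in 1 of its 3 windows, and the windows of ARNT and HIF1AN had none.

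HIF1A was the most abundant of the 10 transcripts in every group, at 47.2 FPKM in U251 artesunate, 52.8 FPKM in U251 control, 162 FPKM in U87 artesunate and 115 FPKM in U87 control (means of 3 libraries). The next in order depended on the line: EGLN1 was the next in U251, at 32.6 FPKM with artesunate and 18.7 FPKM in control, and EPAS1 in U87, at 29.2 FPKM with artesunate and 38.5 FPKM in control. EGLN3 held the third place in U251 with artesunate, at 11.2 FPKM, against 0.914 FPKM in U251 control, and the last place in U87, at 0.133 FPKM with artesunate and 0.112 FPKM in control. HIF3A was the lowest in U251, with 2, 2 and 0 counts in the artesunate libraries and 0 counts in the 3 controls. The floor of 3 counts in a library lay between 0.173 and 0.22 CPM, so a fold for HIF3A is not given in U251. EGLN2, the lowest prolyl hydroxylase in U251 with artesunate, lay between 1.06 and 2.02 FPKM across the 4 group means.

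**Figure D1:**
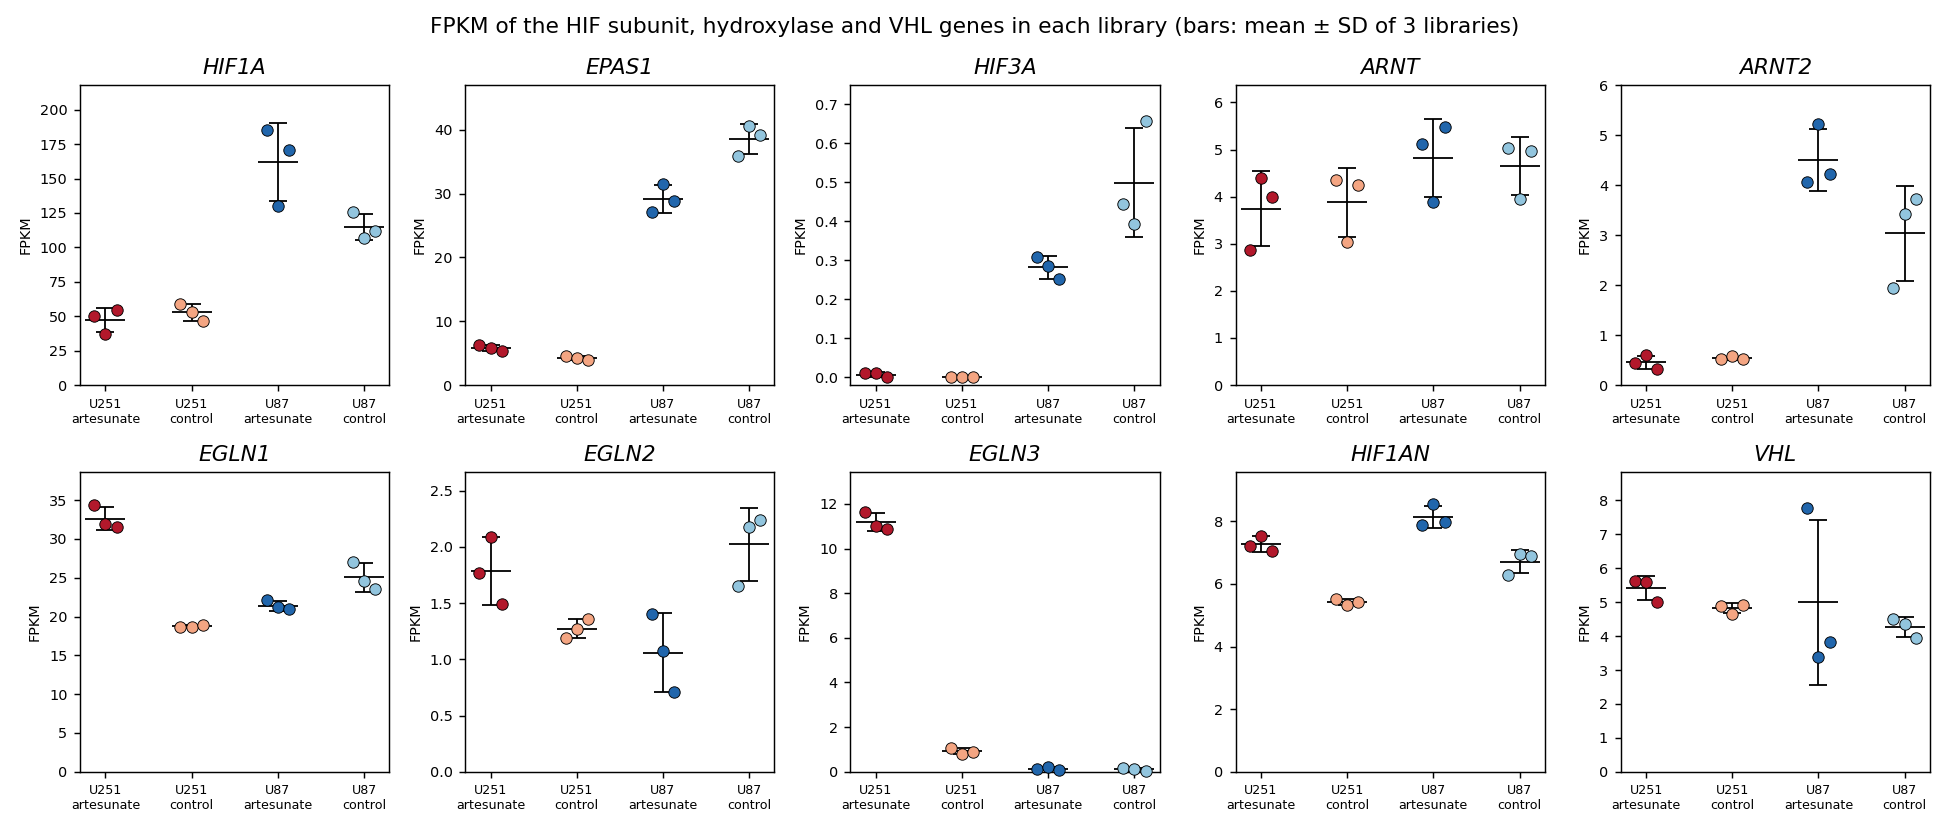
Deposited FPKM of each of the 10 genes (y axis, linear scale, own range for each gene) in the 12 libraries by group (x axis); each point is 1 library, and the bars are the mean ± SD of 3 libraries. EGLN3 stands at 11.2 FPKM on average in U251 with artesunate, against 0.914 FPKM in U251 control, while VHL in U87 with artesunate is spread by 1 library at 7.78 FPKM.

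The question of the first comparison is which of these transcripts artesunate changed in U251. EGLN3, EGLN1, EPAS1 and HIF1AN rose, that is, 2 of the 3 prolyl hydroxylases, the asparaginyl hydroxylase and 1 alpha subunit, and the other 6 genes were not called. Of all 17150 tested genes, 4.09% rose and 4.26% fell. The median log2 fold change was 0.47 over the 10 genes and 0 over all tested genes. These 4 calls held under each of the 23 alternative settings tried. One of these settings takes offsets from GC content and transcript length, and with it 4.93% of all tested genes rose and 4.17% fell in U251.

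EGLN3 encodes PHD3, the prolyl hydroxylase known as the most strongly hypoxia-induced of the 3. Its level was 114, 109 and 105 CPM in the U251 artesunate libraries, against 10.1, 7.61 and 8.39 CPM in the U251 controls (1593 to 1718 counts against 125 to 153). The lowest artesunate library was thus far above the highest control, and the log2 fold change was 3.65 ± 0.27 (standard error; 12.5-fold, edgeR adjusted p = 1.8e-05). On log2(FPKM + 1), a scale that compresses low values, the change was 2.67. EGLN3 was the only one of the 10 genes marked as up in U251 in the authors' deposited table, where its log2 fold change was 3.65. Unmarked there were EGLN1, HIF1AN and EPAS1, with edgeR adjusted p of 7.35e-08, 0.019 and 0.029 from the authors. In the deposited coordinates (chromosome 14, 33924231 to 34462774, minus strand) its locus also spans SPTSSA on the same strand, whose log2 fold change in U251 was -0.09 ± 0.12 (adjusted p = 0.73), and EGLN3-AS1, which had 0 counts in every library.

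EGLN1 encodes PHD2, regarded as the main oxygen sensor of the family in normoxic cells. It had 267, 249 and 240.2 CPM in the U251 artesunate libraries, against 140.3, 141 and 142 CPM in the controls. The controls differed by less than 2 CPM from each other and every artesunate library lay above them, with a log2 fold change of 0.84 ± 0.08 (1.79-fold, adjusted p = 7e-05). EGLN2 encodes PHD1, and had 32.9, 38.9 and 27.1 CPM with artesunate, against 21.4, 22.9 and 24.4 CPM in control. Its groups did not overlap, but it was not called (0.52 ± 0.22, adjusted p = 0.18). In a fit to the U251 libraries alone the adjusted p was 0.039. Reads of EGLN2 (chromosome 19, 40798996 to 40808433) may be shared with the overlapping readthrough gene RAB4B-EGLN2, which rose by 0.83 ± 0.20 (adjusted p = 0.03), a call that ended when any single U251 library was left out and with offsets for GC content and transcript length.

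Of the alpha subunits, EPAS1, which encodes HIF-2α, had 72.6, 68.7 and 61.3 CPM in the U251 artesunate libraries, against 51, 49.1 and 45 CPM in the controls. All artesunate libraries lay above all controls, and EPAS1 rose by 0.48 ± 0.09 (1.4-fold, adjusted p = 0.0068). HIF1A, which encodes HIF-1α, had 496, 372 and 532 CPM with artesunate, against 569, 514 and 447 CPM in control. Here the groups overlapped, and the log2 fold change was -0.13 ± 0.16 (adjusted p = 0.7).

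HIF1AN, which encodes the asparaginyl hydroxylase FIH, had 109, 114 and 105 CPM in U251 with artesunate, against 80.9, 78.4 and 79.2 CPM in control. Its groups did not overlap, and it rose by 0.46 ± 0.07 (1.38-fold, adjusted p = 0.0028). The beta subunit ARNT, the common partner of the alpha subunits, averaged 47.6 ± 10.1 CPM with artesunate and 48.1 ± 9.05 CPM in control (SD, n = 3 each). ARNT2, a paralog best known from the nervous system, averaged 6.76 ± 2.04 CPM with artesunate and 7.76 ± 0.46 CPM in control. VHL averaged 40 ± 3.1 CPM with artesunate and 34.8 ± 1.01 CPM in control, and its artesunate libraries lay above the controls with no overlap. None of these 3 was called, with log2 fold changes of -0.02 ± 0.20 for ARNT, -0.20 ± 0.26 for ARNT2 and 0.20 ± 0.25 for VHL.

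In U87, HIF1A, ARNT2 and HIF1AN rose, EPAS1 and EGLN2 fell, and the other 5 genes were not called. Both directions were common in this line: 29.2% of all 17150 tested genes rose and 29.2% fell, so a count of 5 of 10 genes is near the background. A smooth function of GC content and transcript length was fitted in each library to the deviations of genes from their means over the 12 libraries. It accounted for a share of 0.152, 0.0245 and 0.125 of the variance of these deviations in the U87 artesunate libraries 1, 2 and 3. The share was at most 0.0937 in a U87 control, 0.0274 in U251 artesunate and 0.0102 in U251 control. Such deviations also hold the differences between lines and treatments, which the offsets do not keep apart. With offsets from that function, 3 of the 10 genes were called in U87 in place of 5, and they were ARNT2, EPAS1 and EGLN1. With the same offsets 19.7% of all tested genes rose and 25.9% fell in U87, so that count too is not set apart from the background. None of the 10 genes was marked as up or down in U87 in the authors' deposited table, but the mark does not follow the adjusted p alone. The authors' edgeR adjusted p was under 0.05 for EGLN2 (0.0044), HIF1A (0.021) and HIF3A (0.037). It was 0.057 for ARNT2, 0.088 for EPAS1 and 0.21 for HIF1AN.

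HIF1A had 1889, 1263 and 1717 CPM in the U87 artesunate libraries, against 1187, 1025 and 1053 CPM in the U87 controls. All artesunate libraries lay above the controls, the lowest by a small margin, and HIF1A rose by 0.58 ± 0.16 (1.49-fold, adjusted p = 0.0093). With the GC and length offsets the direction turned, to -0.23 ± 0.13 (adjusted p = 0.15). The longest transcript of HIF1A has 36.4% GC, the lowest of the 10 genes. HIF1A (chromosome 14, 61695513 to 61748259, plus strand) overlaps the antisense transcripts HIF1A-AS1 (7 to 43 counts in a library) and HIF1A-AS2 (0 to 9 counts), and the strandedness of the counting is not stated.

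Without the offsets EPAS1 went the other way from HIF1A: it had 326, 360.5 and 341 CPM with artesunate in U87, against 400.0, 458 and 434 CPM in control. All artesunate libraries lay below all controls, and EPAS1 fell by 0.33 on the log2 scale (SE 0.09, adjusted p = 0.006). With the offsets its log2 fold change was -0.17 ± 0.06 (adjusted p = 0.04), of the same sign as that of HIF1A with the offsets. HIF3A, which encodes an alpha subunit with short isoforms that can restrain the others, had 56, 49 and 51 counts with artesunate, against 97, 81 and 129 counts in control. The groups did not overlap, but the log2 fold change of -0.75 ± 0.30 was not called (adjusted p = 0.058), and it was called in 7 of the 23 alternatives.

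ARNT2 had 61.6, 75.4 and 63.5 CPM in U87 with artesunate, against 27.5, 49.1 and 52.3 CPM in control, where library 1 was the low one. It rose by 0.64 ± 0.23 (1.56-fold, adjusted p = 0.035). Without U87 control 1 the log2 fold change was 0.40 (adjusted p = 0.11), and the call was also lost without U251 control 1, U87 artesunate 2 or U87 artesunate 3 and in 5 other settings, with adjusted p of at most 0.11. ARNT averaged 62.1 ± 11.9 CPM with artesunate and 56.7 ± 6.96 CPM in control (0.13 ± 0.20, adjusted p = 0.59).

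Among the prolyl hydroxylases, EGLN2 had 26.7, 19.4 and 13.3 CPM in U87 with artesunate, against 29.1, 39 and 39.2 CPM in control. It fell by 0.86 on the log2 scale (SE 0.23, adjusted p = 0.0062), with all artesunate libraries below the controls. The readthrough gene RAB4B-EGLN2 fell by 0.93 on the same scale (SE 0.20, adjusted p = 0.002). With the GC and length offsets the change of EGLN2 was -0.38 ± 0.22 (adjusted p = 0.19), and the calls of both genes were lost. EGLN1 had 176, 160.4 and 164 CPM with artesunate, against 199.9, 184 and 173 CPM in control. Its groups overlapped, and the log2 fold change of -0.15 ± 0.08 was not called (adjusted p = 0.11), while with the offsets it was -0.61 ± 0.06 (adjusted p = 1.8e-05). EGLN3 had 15, 27 and 13 counts with artesunate, against 29, 17 and 8 counts in control, and no change was detectable at this depth (0.27 ± 0.38, adjusted p = 0.57).

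HIF1AN had 122, 126 and 122 CPM in U87 with artesunate, against 90.3, 101 and 98.7 CPM in control, and rose by 0.35 ± 0.07 (1.28-fold, adjusted p = 0.0013) with no overlap of the groups. It was the only one of the 10 genes called in the same direction in both lines. With the offsets its change in U87 was 0.01 ± 0.07 (adjusted p = 0.91), and in U251 it was 0.44 ± 0.07. HIF1AN (chromosome 10, 100529072 to 100559998, plus strand) overlaps the start of NDUFB8 on the other strand, whose log2 fold change in U87 was -0.49 ± 0.11. VHL had 59.2, 24.6 and 28.7 CPM with artesunate in U87, against 31.9, 31.1 and 27.7 CPM in control. Library 1 stood above all others and the rest overlapped the controls. The log2 fold change of VHL was 0.31 ± 0.25 (adjusted p = 0.32), and -0.18 without that library.

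**Figure D2:**
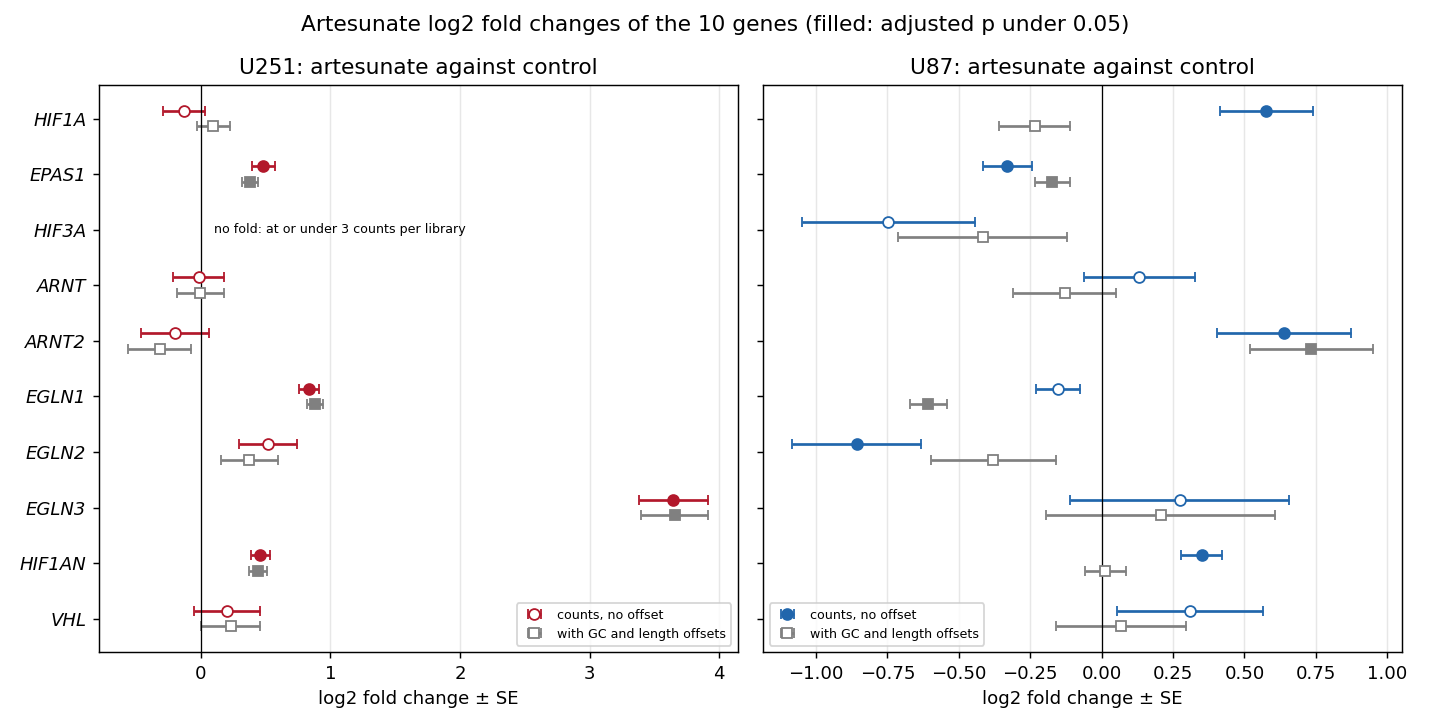
Log2 fold change of artesunate over control ± SE (x axis, own range in each panel) for the 10 genes (rows) in U251 on the left and U87 on the right, from the counts (circles) and with GC and length offsets (grey squares); filled symbols have an adjusted p under 0.05. In U251 each of the 4 filled circles has a filled square on the same side of 0 (EPAS1 0.48 and 0.38, EGLN3 3.65 and 3.66), whereas in U87 HIF1A stands at 0.58 from the counts and at -0.23 with the offsets.

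The effect of artesunate in U251 was then set against its effect in U87 with an interaction term (U251 minus U87), in which 24.1% of all tested genes were higher and 25.3% were lower. Of the 10 genes, EGLN3, EGLN2, EGLN1 and EPAS1 were higher and HIF1A was lower. HIF3A was also called as higher, but it had only 0 to 2 counts in each U251 library, passed the filter on low counts through U87, and lost the call with the GC and length offsets (adjusted p = 0.069), so its fitted value is not given. EGLN3 differed by 3.37 ± 0.47 (adjusted p = 0.00012), EGLN1 by 0.99 ± 0.11 (adjusted p = 2.8e-05) and EPAS1 by 0.81 ± 0.12 (adjusted p = 0.00024), and these 3 were called in each of the 22 alternatives that could be run. EGLN2 differed by 1.38 ± 0.32 (adjusted p = 0.0035), and with the GC and length offsets by 0.75 ± 0.31 (adjusted p = 0.092). HIF1A differed by -0.71 ± 0.23 (adjusted p = 0.023), but by 0.33 ± 0.18 with the offsets (adjusted p = 0.19), and its call was lost when any of 6 single libraries was left out (artesunate library 2 or control 1 of U251, artesunate 1 or 3 or control 2 or 3 of U87), with log2 values of -0.66 to -0.56. HIF1AN did not pass (0.11 ± 0.10, adjusted p = 0.4), although with the offsets it did (0.43 ± 0.10, adjusted p = 0.0078). ARNT2 differed by -0.84 ± 0.35 (adjusted p = 0.067), and with the offsets by -1.05 ± 0.33 (adjusted p = 0.031). It was called in 4 of the 22 alternatives. For ARNT and VHL the differences were -0.15 ± 0.28 and -0.11 ± 0.36 and were not called.

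The untreated lines were compared next. In U251 control against U87 control, EGLN3 was higher, 7 genes were lower (EPAS1, ARNT2, HIF1A, EGLN2, EGLN1, HIF1AN and HIF3A), and ARNT and VHL were not called. Such differences were frequent among all tested genes, of which 32.5% were higher and 32.3% were lower in U251. The call of HIF3A is not read as a result, since this gene passed the filter on low counts through U87, where it is high. EPAS1 averaged 48.3 ± 3.03 CPM in U251 control and 431 ± 29.2 CPM in U87 control (log2 difference -3.16 ± 0.09, adjusted p = 1.4e-10). ARNT2 averaged 7.76 ± 0.46 CPM in U251 control and 43 ± 13.5 CPM in U87 control (-2.47 ± 0.26, adjusted p = 4.4e-06), and HIF1A averaged 510 ± 60.9 CPM in U251 control and 1089 ± 86.8 CPM in U87 control (-1.09 ± 0.16, adjusted p = 9.9e-05). All 3 were marked as up in U87 over U251 in the authors' deposited table.

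HIF3A had 0 counts in the 3 U251 controls together and 307 counts in the 3 U87 controls, which makes it at least 98-fold lower in U251, computed at a floor of 3 counts over the group. EGLN3 averaged 8.71 ± 1.29 CPM in U251 control and 1.05 ± 0.57 CPM in U87 control, and was 8.13-fold higher in U251 (log2 difference 3.02 ± 0.32, adjusted p = 4.8e-06). On log2(FPKM + 1) the difference was 0.78 for EGLN3 and -1.36 for ARNT2. EGLN1 and HIF1AN differed less, with log2 differences of -0.40 ± 0.08 and -0.28 ± 0.07. EGLN2 differed by -0.64 ± 0.22 (adjusted p = 0.024), a call that was lost with the offsets (-0.36, adjusted p = 0.16) and without U251 control 1, U251 control 2, U87 control 2 or U87 control 3, with log2 values of -0.65 to -0.58. Between neighbours in the order of the 4 group levels, the ranges of ARNT overlapped throughout, and those of VHL overlapped except between the U251 and U87 controls.

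The make-up of each family was taken from the FPKM summed over its members. The 3 prolyl hydroxylases summed to 45.6 ± 1.97 FPKM in U251 with artesunate and 20.9 ± 0.17 FPKM in U251 control (SD, n = 3 each). EGLN3 made up 24.4%, 24.5% and 24.8% of that sum in the artesunate libraries, against 5.09%, 3.84% and 4.18% in the controls, and EGLN1 made up 71.6 ± 0.58% with artesunate and 89.5 ± 0.43% in control. In U87 the sum was 22.6 ± 0.98 FPKM with artesunate and 27.2 ± 1.57 FPKM in control, of which EGLN3 made up 0.588 ± 0.288% with artesunate and 0.405 ± 0.198% in control. Among the alpha subunits, EPAS1 made up 11.2 ± 2.33% of the summed FPKM in U251 with artesunate and 7.48 ± 0.40% in U251 control. In U87 it made up 15.6 ± 3.5% with artesunate and 25.1 ± 2.69% in control. These shares carry no offsets for GC content and length, and the ratio of EPAS1 over HIF1A with them is given next.

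In the ratio of paralogs within a library the scaling between libraries cancels, but an effect of GC content or length does not. The log2 ratio of EPAS1 over HIF1A was -3.01 ± 0.34 in U251 artesunate and -3.63 ± 0.08 in U251 control, and -2.46 ± 0.38 in U87 artesunate and -1.57 ± 0.21 in U87 control. The log2 ratio of EGLN3 over EGLN1 was -1.55 ± 0.01 in U251 artesunate and -4.37 ± 0.21 in U251 control. In these 3 comparisons the groups did not overlap, and the two-sided exact permutation p was 0.1, the smallest that 3 against 3 libraries allow (adjusted p = 0.2 over the 12 comparisons made). With the GC and length offsets, an alternative for the ratios chosen after seeing the data and given as a value with no test, the log2 difference of EPAS1 over HIF1A was 0.28 in U251, in place of 0.62, and 0.06 in U87, in place of -0.89. The lower ratio in U87 with artesunate, and the opposite directions of the 2 lines, were thus not seen with the offsets. For EGLN3 over EGLN1 in U251 the difference was 2.77 with the offsets and 2.82 without. In U87 the log2 ratio of EGLN3 over EGLN1 overlapped between the groups, at -7.44 ± 0.67 with artesunate and -7.96 ± 0.76 in control (exact p = 0.5). The ratio of ARNT2 over ARNT differed by less than the spread between libraries in U251 (-3.05 ± 0.49 with artesunate, -2.83 ± 0.37 in control; exact p = 0.6) and overlapped in U87 (-0.10 ± 0.45 with artesunate, -0.66 ± 0.62 in control; exact p = 0.4). The ratio of EGLN2 over EGLN1 overlapped in both lines (exact p = 0.2 in each).

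**Figure D3:**
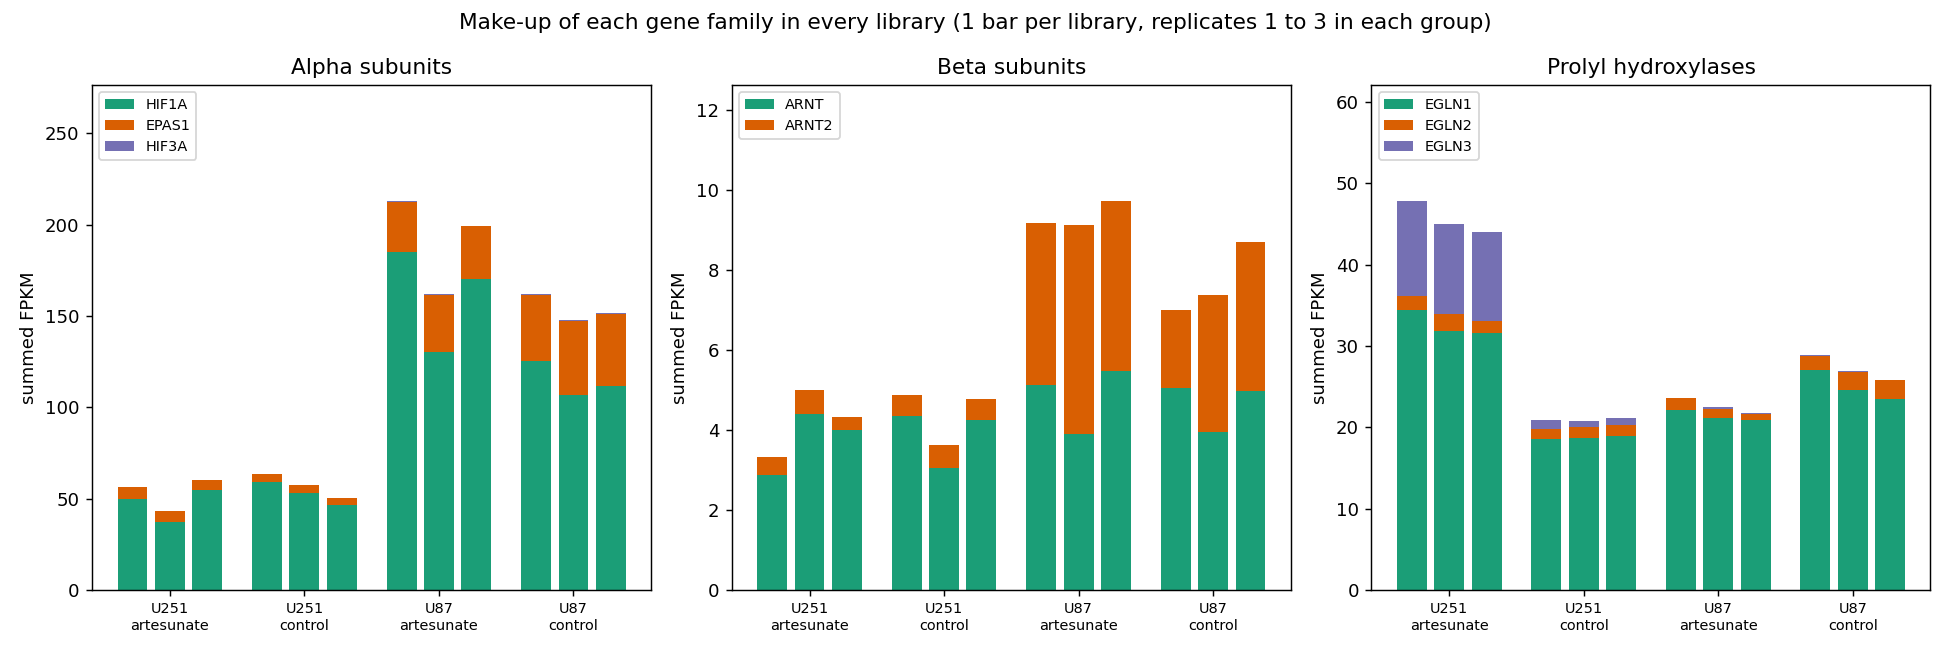
Summed FPKM (y axis, from 0) of the alpha subunits, the beta subunits and the prolyl hydroxylases in every library (1 stacked bar per library, replicates 1 to 3 from left to right in each group); colours are the genes. EGLN3 takes up 24.4% to 24.8% of the prolyl hydroxylase bars in U251 with artesunate and 3.84% to 5.09% in U251 control.

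The other genes of the pathway were counted in lists that were written with earlier results of these data known, so their counts are a description. Over all tested genes, 4.09% rose in U251, and 29.2% rose and 29.2% fell in U87, and the counts of each list are read against these shares. Of 30 HIF target genes, 20 rose in U251 and 10 were not called, with a median log2 fold change of 0.82. In U87, 6 rose, 17 fell and 7 were not called, with a median of -0.36. With the GC and length offsets 22 rose in U251, where 4.93% of all genes did, and 6 rose and 14 fell in U87, where 19.7% and 25.9% did. PFKFB4, which sets the level of a glycolytic activator, was called in opposite directions in the lines. It averaged 135 ± 8.46 CPM in U251 with artesunate and 50.1 ± 1.29 CPM in U251 control (1.43 ± 0.11, adjusted p = 1.9e-05). In U87 it averaged 44.4 ± 7.46 CPM with artesunate and 215 ± 4.89 CPM in control (-2.28 ± 0.11, adjusted p = 5e-08). The mitophagy receptor BNIP3L rose in both lines. Its change was 0.81 ± 0.15 in U251 (adjusted p = 0.0076) and 2.03 ± 0.15 in U87 (adjusted p = 9.2e-07, and 1.36 with the offsets). NDRG1 had the smallest p of the list in U251 (3.55 ± 0.14). It also rose in U87, by 0.47 ± 0.13 (edgeR adjusted p = 0.0072, and 0.61 with the offsets). NDRG1 averaged 36.9 CPM in U251 control and 384 CPM in U87 control.

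The prolyl hydroxylases belong to the 2-oxoglutarate oxygenases, and of 30 other tested enzymes of this kind 12 rose in U251 and 18 were not called (median 0.32). In U87 13 rose, 10 fell and 7 were not called (median 0.03), and with the offsets 16 rose and 7 fell. PLOD2, a collagen lysyl hydroxylase, averaged 478 ± 17 CPM in U251 with artesunate and 229 ± 10.5 CPM in U251 control. In U87 it averaged 680 ± 69.9 CPM with artesunate and 334 ± 26.6 CPM in control. It rose by 1.06 ± 0.09 in U251 and by 1.03 ± 0.09 in U87, and the test of the difference gave 0.04 ± 0.12 (adjusted p = 0.85). With the offsets the change of PLOD2 was 1.34 in U251 and 0.15 in U87, and the difference was 1.19 (adjusted p = 2.4e-06). KDM7A, a histone lysine demethylase, rose by 0.56 ± 0.13 in U251 (adjusted p = 0.027), a call that was lost when any single U251 library was left out, and by 2.84 ± 0.14 in U87 (adjusted p = 5.5e-08; 2.07 with the offsets). ALKBH5, an RNA demethylase, rose by 0.61 ± 0.09 in U251 (adjusted p = 0.0016) and fell by 0.70 in U87 (SE 0.09, adjusted p = 3.2e-05), where its change was -0.30 with the offsets.

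Of the 9 genes of the VHL ubiquitin ligase and its neddylation, only UBE2M, the NEDD8-conjugating enzyme, rose in U251 (0.49 ± 0.09, adjusted p = 0.0088; median of the list 0.02), and its call was lost with the GC and length offsets (0.20). In U87, 4 of the 9 rose and 4 fell (median 0.72), against 29.2% of all tested genes in each direction, and with the offsets 5 rose and 1 fell. There UBE2M fell by 1.18 on the log2 scale (SE 0.09), but its change was 0.30 with the offsets, and USP33, a deubiquitinase, rose by 1.18 ± 0.10 (0.54 with the offsets). Of 20 tested coactivators, inhibitors and turnover factors, 3 rose in U251 and 17 were not called (median 0.15). Leaving out single libraries gave between 1 and 5 calls there, and with the offsets 1 rose and 2 fell. In U87, 9 rose and 6 fell (median 0.13). SIAH2, a ubiquitin ligase whose known substrates are prolyl hydroxylases, rose by 0.66 ± 0.10 in U251 (adjusted p = 0.0023) and by 0.86 ± 0.10 in U87 (adjusted p = 1.9e-05; 1.41 with the offsets). MDM2, a ubiquitin ligase of p53, rose by 1.54 ± 0.11 in U87 (0.93 with the offsets), and RUVBL2, a chromatin ATPase, fell by 1.47 (SE 0.10), with a change of -0.57 under the offsets. Of 10 other genes of the bHLH-PAS family of ARNT, edgeR called 0 in U251 (1 higher and 1 lower at an unadjusted p under 0.05; median 0.07). That count was 2 in the fit to only the U251 libraries and without U87 artesunate 2, and 1 with total counts, DESeq2 size factors, DESeq2, limma on log2 FPKM and without U87 control 1. In U87, 5 rose, among them the circadian factor CLOCK (0.84 ± 0.08, and 0.001 with the offsets), and ARNTL2 fell by 1.27 (SE 0.29; -1.88 with the offsets; median of the list 0.44).

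**Figure D4:**
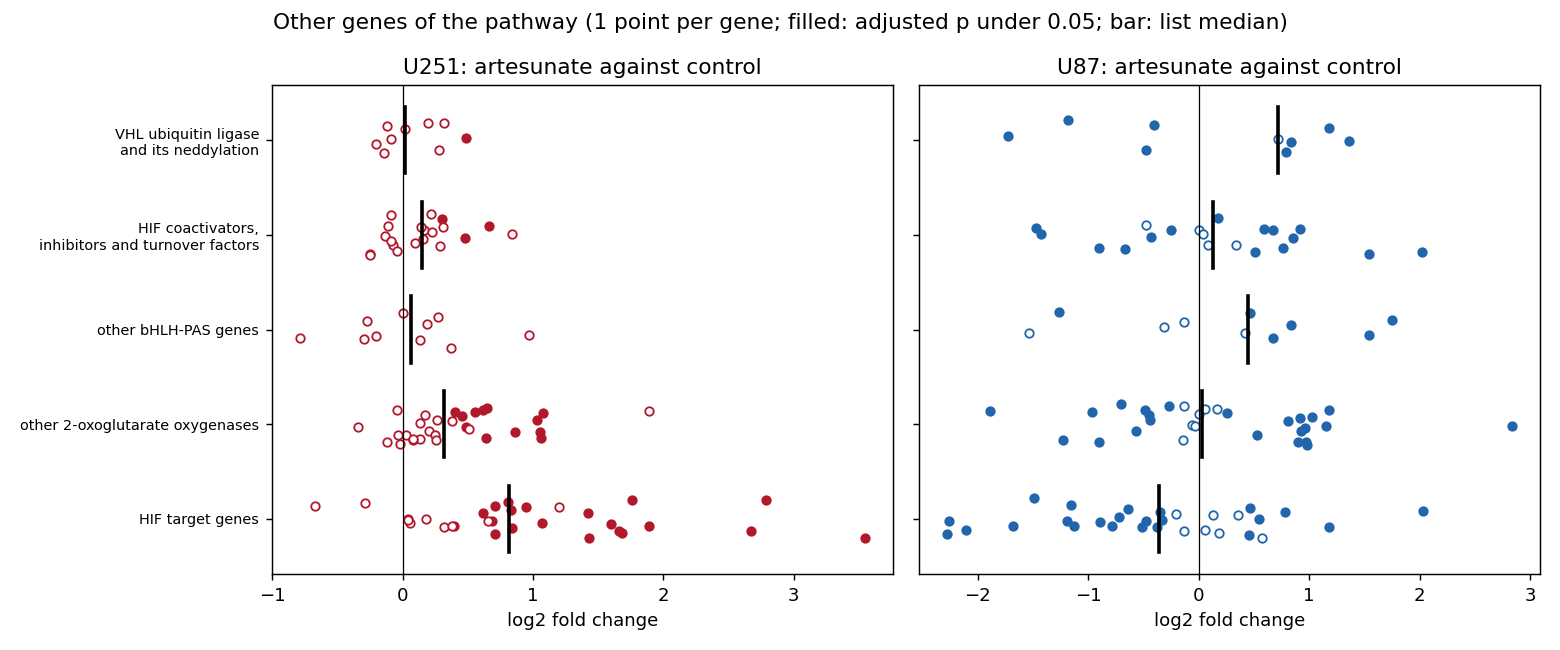
Log2 fold change of artesunate over control (x axis, own range in each panel) for each tested gene of 5 lists (rows) in U251 on the left and U87 on the right; filled points have an adjusted p under 0.05 and black bars are list medians. The median of the HIF target genes is 0.82 in U251 and -0.36 in U87.

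The genes whose log2 CPM followed HIF1A, EPAS1 and EGLN3 most closely were read from the 12 libraries, which share their lines, doses and depth, so that the correlations mostly describe the 4 group levels. Closest to EGLN3 were TGFA (Pearson's r = 0.978), ZFAND3 (0.974) and IRS2 (0.972), among 9621 protein-coding genes. TGFA averaged 113 CPM in U251 with artesunate, 58 CPM in U251 control, 44.2 CPM in U87 with artesunate and 43.1 CPM in U87 control. Closest to EPAS1 were TCF7 (r = 0.998), FMNL3 (0.998) and ITGA5 (0.998), and closest to HIF1A were NSMAF (0.988), XPC (0.987) and EIF2S1 (0.987). ITGA5 averaged 195 CPM in U251 with artesunate, 150.4 CPM in U251 control, 1190 CPM in U87 with artesunate and 1674 CPM in U87 control, the order of groups seen in EPAS1.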

How the data were processed

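Each of the 12 libraries was measured by RNA-seq of polyadenylated RNA. Reads were cleaned with fastp, aligned with HISAT2 2.1.0 to GRCh38 and quantified with StringTie 1.3.3b, per the submitters' processing notes and series text. The deposited whole-number counts per gene carry no normalization by the authors, and the step that made them and its strandedness are not given in the sources used here. FPKM values were computed by the authors after TMM normalization. The deposited table also holds the authors' log2 fold changes, p-values and adjusted p-values from edgeR 3.30.3, with their calls of up, down or neither.

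Tests on the counts ran in edgeR 4.0.16 under R 4.3.3 (filterByExpr with a minimum count of 10 and a minimum total of 15, TMM factors, quasi-likelihood fit of 4 group means to all 12 libraries, Benjamini-Hochberg adjustment within a comparison). Of 35237 genes with a count, 17150 were tested, and the common biological coefficient of variation was 0.183. Alternatives used DESeq2 1.42.0, limma 3.58.1 on log2(FPKM + 1) and log2(FPKM + 0.1), and offsets from a smooth fit (mgcv 1.9.3) on the GC content and length of each gene's longest transcript in GENCODE 29, where 57980 of the 58302 identifiers and 99.64% of the tested genes had a value and all 10 genes had the deposited positions. The edgeR fit without offsets, DESeq2 and limma on log2 CPM were tested on simulated counts. The offsets, the replicate block, the FPKM settings and the ratios were not tested in this way. Library totals limit the precision, and the floor of 3 counts covers counting error only.

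The 10 genes and the lists were chosen with earlier results of these data known. All 10 are named whatever their result. From each list the called gene with the smallest p in each direction and line is named, and for HIF1A, EPAS1 and EGLN3 the 3 tested protein-coding genes with the highest Pearson's r over the 12 libraries (mean log2 CPM of at least 3). Correlations between replicates of a group across genes were 0.985 to 0.987, except in U87 artesunate (0.972 to 0.981). Whether the replicate numbers pair the libraries is not stated. Deviations of same-numbered libraries within a line correlated by -0.009 to 0.053 over 6 pairs, and those of differently numbered libraries by -0.085 to 0.044. Values this small cannot decide whether the libraries were paired.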

Additional observations from a re-analysis of the deposited data

Results flagged for a closer look

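The interaction test of the artesunate effect called 6 of the 10 genes, HIF3A among them. The test takes the log2 fold change in U251 minus that in U87 (edgeR, 3 libraries in each group). Of all tested genes, 24.1% were higher and 25.3% were lower in this test, so a count of 6 of 10 is near the background. The difference was 3.37 for EGLN3, 1.38 for EGLN2, 0.99 for EGLN1, 0.81 for EPAS1 and -0.71 for HIF1A. HIF3A was the other gene called, on 0 to 2 counts in each U251 library. It passed the filter on low counts through U87, so its call is not read as a result and its fitted value is not given. With GC and length offsets the difference was 0.75 for EGLN2 (adjusted p = 0.092) and 0.33 for HIF1A (adjusted p = 0.19), so that neither was called, and the call of HIF1A was lost when any 1 of 6 libraries was left out. EPAS1 was above every control in 3 of 3 artesunate libraries in U251 and below every control in 3 of 3 in U87, and EGLN2 showed the same arrangement. Since U251 received 180 µM and U87 24.08 µM, these differences are of line and dose together.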

How the results depend on the processing

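Among 23 alternatives (22 for the difference between lines), the number of the 10 genes called ran from 4 to 5 in U251 (4 as reported), 3 to 7 in U87 (5), 4 to 7 for the difference (6) and 7 to 8 between controls (8). In U87 it was 3 with GC and length offsets and 3 with these offsets and the replicate block together. The reported 6 for the difference and 8 between controls include HIF3A, which passed the filter on low counts through U87. With the replicate block alone EGLN2 between controls was -0.65 (adjusted p = 0.056) and ARNT2 in the difference was -0.92 (adjusted p = 0.033). Signs turned as follows, with the value under the offsets first and that under offsets with the block next: HIF1A 0.10 and 0.10 in U251, -0.23 and -0.24 in U87, 0.33 and 0.34 in the difference, ARNT -0.13 and -0.13 in U87, 0.13 and 0.13 in the difference, USP33 0.040 and 0.040 in U251, UBE2M 0.30 and 0.27 in U87, VHL 0.17 and 0.24 in the difference, and VHL -0.013 in U87 (with the block only). ARNT was 0.012 in U251 without the filter, and VHL in the difference was 0.020 on log2(FPKM + 1), with and without a filter, and 0.035 on log2(FPKM + 0.1). With the offsets, an alternative chosen for the ratios after seeing the data, the log2 difference of EPAS1 over HIF1A in U87 turned to 0.063, that of EGLN2 over EGLN1 to 0.23 in U87 and 0.38 between controls. Leaving out single libraries gave -0.23 to 0.0076 for HIF1A, -0.17 to 0.14 for ARNT and -0.45 to 0.0042 for ARNT2 in U251, -0.16 to 0.74 for EGLN3 and -0.18 to 0.53 for VHL in U87, and -0.29 to 0.014 for ARNT and -0.33 to 0.38 for VHL in the difference. Of these results, those called as reported were HIF1A in U87 and in the difference and UBE2M in U87. The cause was not tested beyond what the offsets change by construction. Low counts limit HIF3A in U251 (4 counts in 6 libraries) and EGLN3 in U87 (8 to 29 counts).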
